A study of Mus musculus with 8 samples.

Results

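A set of 10 genes of innate microbial sensing is described here: the Toll-like receptor genes Tlr1, Tlr2, Tlr4, Tlr6, Tlr7 and Tlr9, the receptor relative Cd180, and the accessory genes Ly86, Ly96 and Cd14. The 10 genes, of 19938 with a symbol of their own in the table, were chosen by symbol, from rows of the table annotated with exactly that 1 symbol. Where a gene had several rows, the highest mean over the 8 arrays would have decided; 0 of the 10 had more than 1 row, so no measured value entered that step. The list itself was drawn up with earlier results of these data known, among them the fall of Ly86, so the adjusted p-values below describe the 10 genes and are no independent support for choosing them.

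The cells came from bone marrow of mice that were 7 weeks old, on a backcrossed C57BL6 background. All carried Vav1-iCre, a Cre recombinase driven by the Vav1 promoter, which is active in blood cells. Knockout mice (KO, Vav1-iCre x Cbfb(F/F)) had both Cbfb alleles floxed, and controls (Het, Vav1-iCre x Cbfb(F/+)) had 1 floxed and 1 intact allele, so every genotype difference is KO against a heterozygote and no wild type was measured. Cbfb encodes the partner protein that helps Runx factors bind DNA. LSK cells (the fraction with the blood stem cells and early multipotent progenitors) and GMP cells (committed progenitors of granulocytes and macrophages) were sorted at a purity above 98% from 2 mice of each genotype. The resulting 4 groups, Het and KO of each cell type, held 2 Mouse Gene 1.0 ST arrays each. Arrays within a group are named biological replicates in the labels, with no mouse given for any array, and p-values thus rest on array-to-array spread, which may be technical.

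Toll-like receptors are membrane proteins with leucine-rich repeats that bind microbial molecules and signal through the adaptor MyD88 or its relatives to NF-kB and interferon regulatory factors. Tlr2 pairs with Tlr1 or Tlr6 at the cell surface to sense bacterial lipopeptides. Tlr4 senses lipopolysaccharide with the help of its bound partner Ly96 and of Cd14, which hands over the ligand. Tlr7 and Tlr9 sit in endosomes and sense single-stranded RNA and unmethylated CpG DNA. Cd180 is a relative of Tlr4 without the signalling domain, known from B cells, macrophages and dendritic cells; it is held at the cell surface by Ly86, which is a relative of Ly96. Stem and progenitor cells are known to carry several of these receptors.

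Values are log2 expression values (1 unit is a 2-fold change), a level being the value on an array and a difference the contrast of group means. Each probe set has its own brightness, so levels are compared between arrays and never between genes. The method gives no detection call; as a guide to the lower end of the scale, the 1210 rows of olfactory and vomeronasal receptor genes had a median of 2.46 to 2.66 and a 95th percentile of 3.93 to 4.11 on the 8 arrays. A gene at or under that percentile is said to lie in the dim range, where a further fall cannot be seen well and a change is understated. Differences were tested with limma over all 21789 rows that carry 1 gene symbol, a row being called at a Benjamini-Hochberg adjusted p under 0.05; the smallest p an exact permutation test could give with 2 arrays a side is 0.333.

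The labels were checked first. Cbfb stood at 7.56 and 7.55 in Het LSK and at 6.93 and 6.98 in KO LSK, a difference of -0.60 (SE 0.16, limma adjusted p = 0.0557), and at 7.53 and 7.65 in Het GMP and 6.48 and 6.96 in KO GMP; there it fell by 0.86 (SE 0.16, adjusted p = 0.013). Which exons are deleted is not known here, and probes elsewhere in the gene check nothing. Leaving out a Het GMP array (0.0689 and 0.104) or the first KO GMP array (0.0755), or testing all rows (0.0632), ended the GMP call of Cbfb; leaving out either KO GMP array brought its LSK difference under the threshold (0.0252). Among the genes that mark GMP cells, 5 of 7 (Mpo, Elane, Prtn3, Ctsg and Fcgr3) were called higher in Het GMP than in Het LSK. Cd34 and Kit were called lower. All 5 measured LSK markers (Procr, Mecom, Hlf, Slamf1 and Kit, which is on both lists) were called lower in Het GMP. In KO LSK, 3 of those 5 (Mecom, Procr and Hlf) fell and Slamf1 rose.

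**Figure D1:**
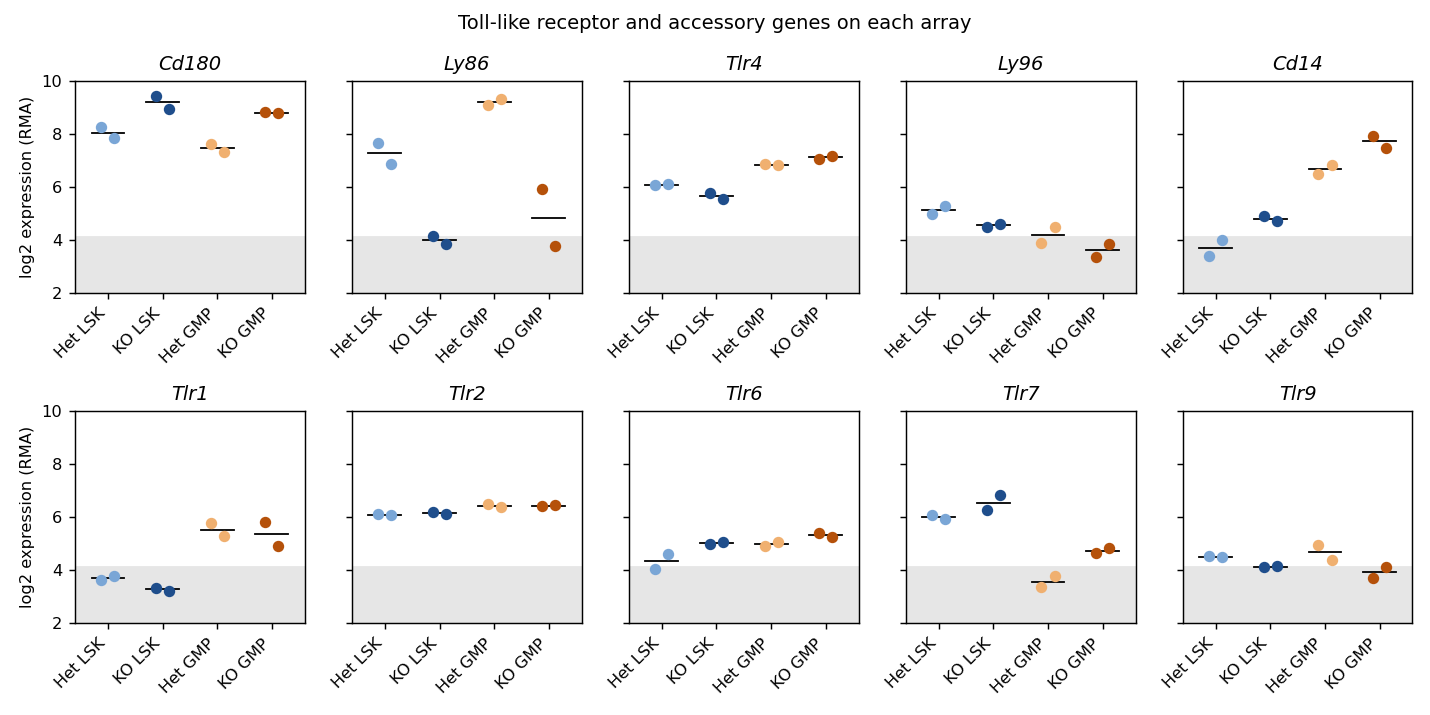
Level of each of the 10 genes (log2 expression) on the 8 arrays, points for single arrays and lines for the mean of 2; the grey band reaches up to 4.11, the highest 95th percentile of the olfactory and vomeronasal receptor rows. Ly86 lies near or in the band on both KO LSK arrays and on 1 KO GMP array, while Cd180 is higher on every KO array than on the Het arrays of the same cell type.

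In KO cells the gene for the receptor Cd180 was higher and the gene for its partner Ly86 was far lower, in both LSK and GMP. Cd14 was higher in KO in both cell types, Tlr7 in GMP and Tlr6 in LSK. As LSK and GMP cells of a genotype may come from the same mice, agreement between the cell types is not independent support. Tlr2 hardly differed, and Tlr1, Tlr4, Tlr9 and Ly96 were not called in either cell type. In LSK, 3 of the 10 rose (Cd180, Cd14, Tlr6) and 1 fell (Ly86), beside 3.02% of all tested rows called higher and 4.71% called lower. In GMP, 3 rose (Cd180, Cd14, Tlr7) and 1 fell (Ly86), beside 3.45% of rows higher and 2.57% lower. KO and Het arrays did not overlap for 9 of the 10 genes in LSK (45.5% of all rows) and for 8 in GMP (51.3% of all rows). The median difference of the 10 was -0.15 in LSK and 0.14 in GMP, beside 0.01 and -0.02 over all rows, and the median absolute difference was 0.56 and 0.66, beside 0.16 and 0.15.

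**Figure D2:**
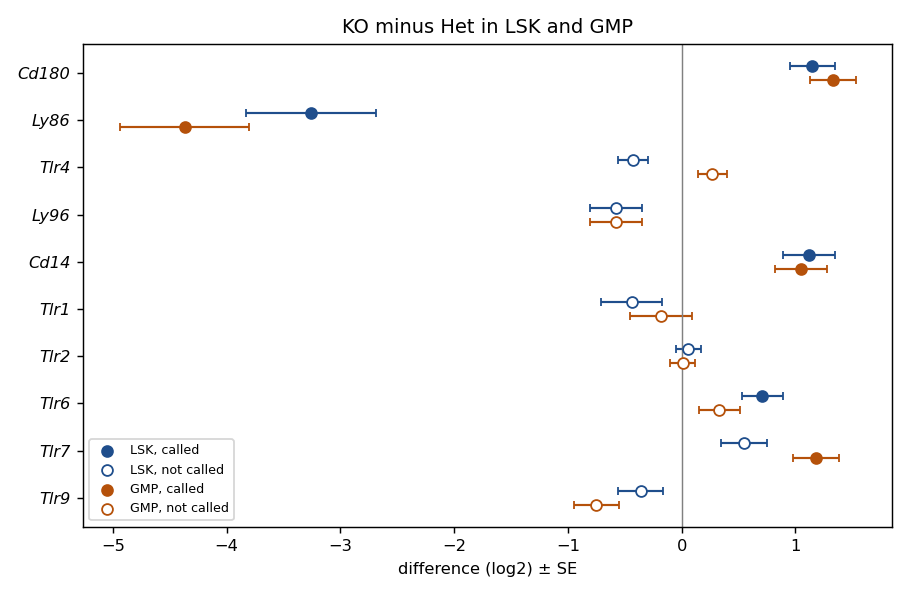
Difference KO minus Het (log2, horizontal axis) of each gene in LSK and in GMP, with limma's standard error as bars; filled points passed at an adjusted p under 0.05. Ly86 stands far to the left in both cell types (-3.26 and -4.37), and the called rises lie between 0.71 and 1.33.

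The promoters of the receptor and of its partner are shown because their genes moved in opposite directions. A promoter of Tlr6 is shown because it held a match to the Runx motif. They are from RefSeq (GRCm38.p6) and reach from 250 bases before the start of transcription to 50 bases after it, read along the gene. Ly86 lies at chr13:37345095-37345394 (plus strand), Cd180 at chr13:102693297-102693596 (plus strand) and Tlr6 at chr5:64959117-64959416 (minus strand). Capitals mark matches to TGTGGT or TGCGGT, the core that Runx proteins bind, or to GAGGAAGT, a site of the myeloid factor PU.1, on either strand; the motifs do not overlap each other.
Ly86: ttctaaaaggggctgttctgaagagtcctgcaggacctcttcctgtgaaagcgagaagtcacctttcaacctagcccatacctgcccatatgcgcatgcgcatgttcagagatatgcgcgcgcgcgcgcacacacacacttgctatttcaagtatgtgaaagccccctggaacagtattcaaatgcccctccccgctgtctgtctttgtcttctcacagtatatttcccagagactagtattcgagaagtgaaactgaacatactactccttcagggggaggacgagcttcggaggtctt
Cd180: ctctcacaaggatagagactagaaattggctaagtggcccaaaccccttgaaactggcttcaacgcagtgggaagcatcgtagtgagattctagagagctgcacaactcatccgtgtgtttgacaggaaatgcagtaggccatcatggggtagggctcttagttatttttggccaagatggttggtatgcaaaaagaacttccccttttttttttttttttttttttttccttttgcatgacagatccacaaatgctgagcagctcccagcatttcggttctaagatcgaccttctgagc
Tlr6: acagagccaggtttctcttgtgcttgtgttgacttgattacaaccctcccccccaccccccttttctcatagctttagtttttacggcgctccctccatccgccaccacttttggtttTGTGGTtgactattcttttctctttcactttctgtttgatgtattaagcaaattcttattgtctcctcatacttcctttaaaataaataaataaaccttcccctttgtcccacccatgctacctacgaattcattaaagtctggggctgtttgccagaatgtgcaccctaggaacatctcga

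The promoter table held 9 promoters of 6 of the 10 genes. The 2 of Cd180 overlap, and those of Tlr4, Tlr7, Ly96 and Cd14 are not shown. Tlr1 and Tlr6 had 2 each, of which 1 held no match to either motif. The Runx core was found in 1 of the 9, that of Tlr6 above, at positions -132 to -127 from the start, and in 22.4% of the 32851 promoters of this length in the table. The PU.1 site was found in 2 of the 9, in Tlr1 at positions -23 to -16 and in Tlr9 on the opposite strand at positions 11 to 18, and in 3.2% of all. These matches are letters in a window and say nothing of binding.

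Ly86 (transcript cluster 10404606) stood at 7.66 and 6.88 in Het LSK and at 4.16 and 3.85 in KO LSK. In Het GMP it stood at 9.11 and 9.33, and in KO GMP at 5.94 and 3.76. In each cell type the KO arrays were the lower ones without overlap, and the second array of each KO group was in the dim range. Ly86 thus fell by 3.26 in LSK (a 9.6-fold difference, SE 0.57, limma adjusted p = 0.00829). In GMP it fell by 4.37 (20.7-fold, SE 0.57, adjusted p = 0.00197). Group means were highest in Het GMP (9.22 ± 0.15, SD, n = 2), then Het LSK (7.27 ± 0.55), then KO GMP (4.85 ± 1.54) and KO LSK (4.01 ± 0.22), and the arrays of the last 2 groups overlapped. Without KO GMP replicate 1, the higher of its pair, the GMP difference was -5.46, and without replicate 2 it was -3.28. Leaving out Het LSK replicate 1 ended the LSK call (adjusted p = 0.0713), as did testing every row of the table, with or without a symbol (0.0545); the GMP call was kept under all 13 alternatives.

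Cd180 (transcript cluster 10406928) stood at 8.25 and 7.84 in Het LSK and at 9.43 and 8.95 in KO LSK. In GMP it stood at 7.63 and 7.31 in Het and at 8.83 and 8.78 in KO. All 4 KO arrays were above all 4 Het arrays, and no array was near the dim range. The receptor gene thus rose by 1.15 in LSK (2.21-fold, SE 0.20, adjusted p = 0.00842) and by 1.33 in GMP (2.52-fold, SE 0.20, adjusted p = 0.00443), the opposite direction to its partner. Leaving out Het LSK replicate 2 ended the LSK call (adjusted p = 0.0677).

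Ly86 is known from monocytes, dendritic cells and B cells, and markers of these cells differed between the same groups. Of 7 measured monocyte and macrophage markers, 1 fell in KO LSK (Mpeg1, by 2.81) and 5 fell in KO GMP; their mean level was 5.36 to 5.4 on the Het LSK arrays, 4.80 to 5.08 in KO LSK, 6.53 to 6.56 in Het GMP and 5.19 to 5.56 in KO GMP. In KO GMP, Ccr2, a chemokine receptor gene of monocytes, fell by 2.0 (SE 0.17, adjusted p = 0.000225), and Mpeg1 fell by 1.67 (adjusted p = 0.0119). This call of Mpeg1 was lost over all rows (0.0749) and without either Het GMP array or KO GMP replicate 2. Cx3cr1 fell by 1.59 in KO GMP, and Csf1r, the receptor gene for macrophage colony-stimulating factor, fell by 1.23. Of 8 dendritic cell markers, 3 fell in KO LSK (Itgax, Cd74 and H2-Aa) and 2 in KO GMP (Cd74 and H2-Aa). H2-Ab1 (-0.49 in LSK and 0.42 in GMP), Siglech, Batf3, Zbtb46 and Xcr1 were called in neither cell type. The mean level of the 8 was 5.45 to 5.80 in Het LSK and 4.59 to 4.66 in KO LSK. In GMP it was 4.42 to 4.59 in Het and 4.03 to 4.14 in KO. Of 5 B cell markers, 4 fell in KO LSK (5.78 to 6.25 in Het, 4.20 to 4.34 in KO). In GMP no B cell marker passed limma's test, also at an unadjusted p under 0.05 (0 of 5; 4.17 to 4.18 and 4.15 to 4.19), with Cd79a, Ms4a1 and Blnk in the dim range in both genotypes. Adgre1 and Fcgr1, markers of mature macrophages, stood at 4.80 and 4.03 in Het GMP and at 3.65 and 4.01 in KO GMP. Markers of other lineages moved in the same KO arrays. Of 4 megakaryocyte markers, all 4 rose in KO GMP (median 3.99; Gp5, a platelet glycoprotein, by 4.44 and Itga2b, a platelet integrin, by 4.28), with mean levels of 5.61 to 6.02 in Het and 9.32 to 9.65 in KO, and 2 rose and 1 fell in KO LSK (7.28 to 7.29 and 8.49 to 8.56). Of 4 erythroid markers, 2 rose and 1 fell in KO GMP (Gata1 rose by 2.13, Car1 fell by 2.75), and 1 rose and 2 fell in KO LSK. Of 5 T and NK cell markers, 1 fell in KO LSK and 0 passed limma's test in KO GMP (1 at an unadjusted p under 0.05), and of 6 neutrophil markers 0 passed in either (0 in LSK and 2 in GMP at an unadjusted p under 0.05). In these bulk samples, fewer cells of a type and less RNA per cell cannot be told apart, and the part of any of these lineages in the differences of the 10 genes was not tested. Cd180, also known from monocytes and B cells, rose in the same samples (by 1.15 in LSK and 1.33 in GMP). Which cells its signal came from was not tested. The GMP call of Csf1r was lost without either Het GMP array (adjusted p = 0.121 and 0.128), without KO GMP replicate 2 (0.162) and over all rows (0.104).

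Cd14 (transcript cluster 10458382), the co-receptor for lipopolysaccharide, stood at 3.39 and 3.99 in Het LSK and at 4.92 and 4.70 in KO LSK. In GMP it stood at 6.50 and 6.83 in Het and at 7.94 and 7.49 in KO. The groups did not overlap in either cell type, and the first Het LSK array was in the dim range. Cd14 rose by 1.12 in LSK (2.18-fold, SE 0.23, adjusted p = 0.018) and by 1.05 in GMP (2.07-fold, SE 0.23, adjusted p = 0.029). Leaving out replicate 1 of Het LSK (adjusted p = 0.114) or of KO LSK (0.0741) ended the LSK call, and leaving out either Het GMP array (0.219 and 0.075) or KO GMP replicate 1 (0.195) ended the GMP call. Both were also lost when all rows were tested (0.0773 and 0.125).

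Tlr4 (transcript cluster 10505517), the lipopolysaccharide receptor itself, stood at 6.07 and 6.11 in Het LSK and at 5.79 and 5.54 in KO LSK. In GMP it stood at 6.87 and 6.83 in Het and at 7.07 and 7.17 in KO. Both KO arrays were thus below both Het arrays in LSK and above them in GMP. Neither difference was called: -0.43 in LSK (SE 0.13, adjusted p = 0.0847) and 0.27 in GMP (SE 0.13, adjusted p = 0.32). In LSK, Tlr4 passed without KO LSK replicate 1 (adjusted p = 0.0468) and when only rows above the median on 2 arrays were tested (0.0438).

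Ly96 (transcript cluster 10344966), the partner that Tlr4 needs to bind lipopolysaccharide, stood at 4.97 and 5.29 in Het LSK, 4.50 and 4.61 in KO LSK, 3.89 and 4.49 in Het GMP and 3.37 and 3.85 in KO GMP. KO arrays were lower in each cell type, by the same amount (-0.58, SE 0.23), and neither difference was called (adjusted p = 0.197 in LSK and 0.22 in GMP). Both KO GMP arrays were in the dim range, as was the first Het GMP array.

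Among the lipopeptide receptors, Tlr2 (transcript cluster 10498992) stood at 6.12 and 6.08 in Het LSK, 6.21 and 6.11 in KO LSK, 6.49 and 6.37 in Het GMP and 6.42 and 6.47 in KO GMP. Its difference between genotypes was 0.06 in LSK and 0.01 in GMP (SE 0.11 for each; adjusted p = 0.841 and 0.978), and the arrays of the genotypes overlapped in both. It had the narrowest range of group means among the 10 genes (0.34). Tlr6 (transcript cluster 10530151) stood at 4.04 and 4.61 in Het LSK and at 5.0 and 5.08 in KO LSK, and rose by 0.71 (1.64-fold, SE 0.18, adjusted p = 0.0475). In GMP it stood at 4.93 and 5.07 in Het and at 5.41 and 5.24 in KO, a difference of 0.33 that was not called (adjusted p = 0.425). The Tlr6 call in LSK lies just inside the threshold and was lost without any single array other than Het LSK replicate 2 (adjusted p = 0.0716 to 0.211), and when all rows were tested (0.133).

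Tlr1 (transcript cluster 10530145) lies beside Tlr6 on chromosome 5, as neighbours in the RefSeq gene table. It stood at 3.63 and 3.80 in Het LSK, 3.33 and 3.22 in KO LSK, 5.79 and 5.28 in Het GMP and 5.81 and 4.90 in KO GMP. All 4 LSK arrays were in the dim range, and the differences between genotypes were not called (-0.44 in LSK, adjusted p = 0.442, and -0.18 in GMP, adjusted p = 0.824, SE 0.27 for each).

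Of the endosomal receptors, Tlr7 (transcript cluster 10607870) stood at 3.36 and 3.77 in Het GMP, in the dim range, and at 4.66 and 4.82 in KO GMP. It rose by 1.18 there (2.26-fold, SE 0.20, adjusted p = 0.00973). The LSK levels were 6.08 and 5.93 in Het and 6.27 and 6.84 in KO, and their difference of 0.55 (SE 0.20) was not called (adjusted p = 0.172) and passed without KO LSK replicate 1 (0.0381). Tlr9 (transcript cluster 10588479) stood at 4.52 and 4.49 in Het LSK, 4.11 and 4.16 in KO LSK, 4.95 and 4.39 in Het GMP and 3.72 and 4.14 in KO GMP. Every KO array was below the Het arrays of its cell type, and the differences of -0.36 in LSK and -0.75 in GMP (SE 0.20 for each) were not called (adjusted p = 0.365 and 0.0666). The first KO GMP array of Tlr9 was in the dim range, and its KO LSK arrays stood just above that range. Leaving out the first Het GMP array (adjusted p = 0.0948) or the second KO GMP array (0.0846), or testing all rows (0.0605), ended the GMP call of Tlr7, and Tlr9 in GMP passed without Het GMP replicate 2 (0.0329).

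The next question was whether the loss of Cbfb acted differently in the 2 cell types. By limma's interaction term (the GMP effect minus the LSK effect), 0 of the 10 genes were called, and 1, Tlr4, had an unadjusted p under 0.05; 1.69% of all rows were called above 0 and 0.601% below it. Tlr4 had an interaction of 0.70 (SE 0.18, adjusted p = 0.0958), which passed without KO LSK replicate 1 (0.0462). That of Ly86 was -1.11 (SE 0.80, adjusted p = 0.66); without KO GMP replicate 1 it was -2.20 and passed (0.041). Cd180 (0.18) and Cd14 (-0.07) had interactions smaller than their standard errors of 0.28 and 0.32.

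Between the cell types, the lipopolysaccharide and lipopeptide receptor genes Cd14, Tlr1 and Tlr4 were higher in GMP than in LSK, and the endosomal Tlr7 was lower, in Het and in KO. Of the 10 genes, 5 were called higher in Het GMP than in Het LSK (Cd14, Ly86, Tlr1, Tlr4, Tlr6) and 2 lower (Tlr7, Ly96), beside 7.9% and 9.6% of all rows. In KO, 3 were called higher in GMP (Cd14, Tlr1, Tlr4) and 2 lower (Tlr7, Ly96), beside 3.66% and 2.39% of all rows. The groups did not overlap for 9 of the 10 genes in Het (57.9% of all rows) and for 8 in KO (47.5%). These comparisons share arrays with those of KO against Het (the same Het LSK arrays, for example), so the values are given side by side and not compared across them.

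**Figure D3:**
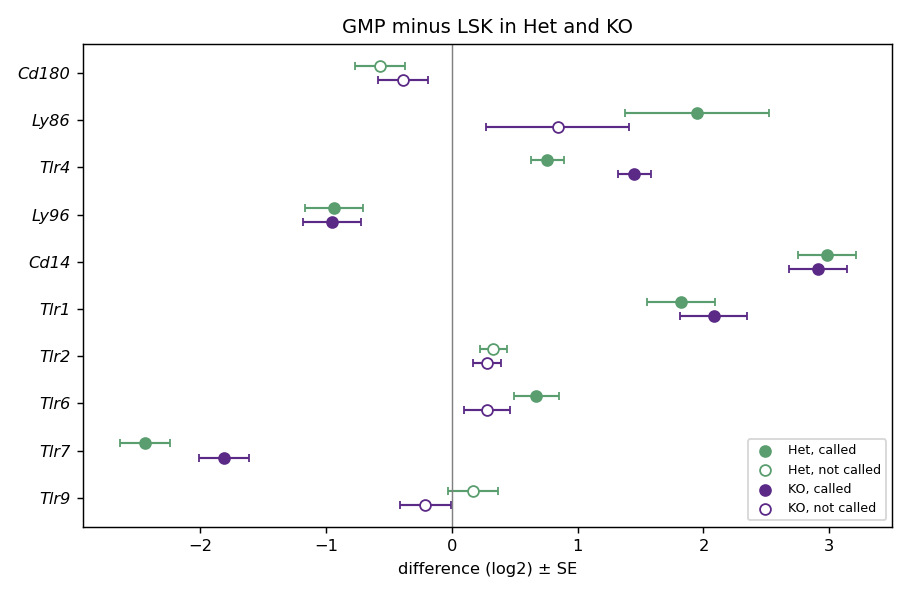
Difference GMP minus LSK (log2, horizontal axis) of each gene in Het and in KO, with limma's standard error as bars; filled points passed at an adjusted p under 0.05. Cd14, Tlr1 and Tlr4 stand to the right and Tlr7 and Ly96 to the left of 0 in both genotypes.

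Cd14 differed most: 2.98 in Het (7.88-fold, SE 0.23, limma adjusted p = 4.95e-05) and 2.91 in KO (7.5-fold, SE 0.23, adjusted p = 0.000146). All 4 GMP arrays, at 6.50 or more, were above all 4 LSK arrays, at 4.92 or less. Tlr1 was 1.82 higher in Het GMP (SE 0.27, adjusted p = 0.00188) and 2.08 higher in KO GMP (adjusted p = 0.00258), each from a level in the dim range. Tlr4 was 0.76 higher in Het GMP (SE 0.13, adjusted p = 0.00319) and 1.45 higher in KO GMP (adjusted p = 0.00026). Tlr7 had a difference of -2.44 in Het (5.41-fold, SE 0.20, adjusted p = 7.77e-05) and -1.81 in KO (3.51-fold, adjusted p = 0.0012). These 8 calls were kept under all 14 alternatives.

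The other calls between cell types were less stable, each lost on leaving out 1 or another array. Some of those arrays were outside the comparison, where the difference stays the same and only its test changes. Ly96 had a difference of -0.94 in Het (SE 0.23, adjusted p = 0.0198) and -0.95 in KO (adjusted p = 0.0439); the Het call was lost without Het LSK replicate 2 (0.141) or Het GMP replicate 1 (0.15), and the KO call without any array other than a Het GMP array (0.0561 to 0.243). Ly86 was 1.95 higher in Het GMP than in Het LSK (SE 0.57, adjusted p = 0.0457), a call lost without any LSK or Het GMP array (0.0503 to 0.254). In KO the difference of Ly86 was 0.84 (adjusted p = 0.48), with overlapping arrays, and it passed without KO GMP replicate 2 (1.93, adjusted p = 0.0153). Tlr6 was 0.67 higher in Het GMP (SE 0.18, adjusted p = 0.0338), a call lost without Het LSK replicate 1 or any single GMP array (0.0508 to 0.169), and the KO groups differed by 0.28 (adjusted p = 0.451).

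Cd180, Tlr2 and Tlr9 were not called between cell types. Cd180 differed by -0.57 in Het (SE 0.20, adjusted p = 0.0886; 0.0458 without either KO LSK array) and -0.39 in KO (adjusted p = 0.344), Tlr2 by 0.33 (SE 0.11, adjusted p = 0.0844) and 0.28 (0.222), and Tlr9 by 0.17 (SE 0.20, adjusted p = 0.653) and -0.21 (0.628), with overlapping arrays for Tlr9 in both genotypes.

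For the 3 genes with the widest range of group means, the genes of most similar pattern were taken by Pearson's r over the 8 arrays, among 2159 other genes whose group means spanned at least 1 unit. These arrays share 4 groups, so a high r mostly restates the differences between groups. Nearest to Ly86 (range 5.21) were Cds1, a lipid synthesis enzyme, and Napsa, an aspartic protease (r = 0.984 each), Irf8, an interferon regulatory factor of monocytes and dendritic cells (0.98), Rassf4 and Mical1 (0.978 each). Group means of Irf8 were 7.15 in Het LSK, 5.70 in KO LSK, 8.39 in Het GMP and 5.64 in KO GMP. Nearest to Cd14 (range 4.03) were Mgam (0.991), Olr1 (0.987), C5ar1, the receptor gene for a complement fragment (0.986), Fam160a2 (0.985) and Pdcd4 (0.984). Nearest to Tlr7 (range 2.99) were Adgra3 (0.986), Mageh1 (0.985), Maml2 (0.984), Sh3glb1 (0.983) and Gch1 (0.981).

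The rest of the pathway was followed in lists. Of the other Toll-like receptor genes, 4 of 6 were measured (Tlr3, Tlr8, Tlr12, Tlr13), and 0 passed limma's test in either cell type, also at an unadjusted p under 0.05 (0 of 4). Their group means lay between 2.40 and 4.25, with Tlr8, the neighbour of Tlr7 on chromosome X, and Tlr13 in the dim range in all 4 groups. Tlr5 and Tlr11 were not analysed here. 

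Of 10 receptor chaperones, processing proteases, co-receptors and relatives, 5 fell and 0 rose in KO LSK (8 lower and 0 higher at an unadjusted p under 0.05), with a list median of -0.60. The 5 that fell were the proteases Ctss and Lgmn, the transport protein Unc93b1, and Lbp and Cd36; the folding chaperones Hsp90b1 (0.24, adjusted p = 0.428), Cnpy3 (-0.49, 0.0623) and Cnpy4 (-0.30, 0.203) did not pass. Ctss, cathepsin S, one of the endosomal proteases that process Toll-like receptors, fell by 2.55 (SE 0.29, adjusted p = 0.000716). Unc93b1, which carries Tlr7 and Tlr9 to endosomes, fell by 1.39 (SE 0.26, adjusted p = 0.0108), from 7.89 and 7.88 to 6.95 and 6.05. Lbp, the lipopolysaccharide-binding protein, fell by 0.92, and Cd36, a co-receptor for lipids in the dim range throughout, fell by 0.82. Lgmn was in the dim range in both KO groups. In GMP, 1 of 10 fell and 0 rose (3 and 0 at an unadjusted p under 0.05; median -0.30): Ctss fell by 2.45 (adjusted p = 0.00104). Calls in LSK were lost for Unc93b1 without Het LSK replicate 1 (adjusted p = 0.0678) or 2 (0.0665), for Lbp without either Het LSK array (0.152 and 0.0735), KO LSK replicate 2 (0.0632) or either Het GMP array (0.0512), and for Cd36 without Het LSK replicate 2 (0.171), KO LSK replicate 2 (0.115) or either Het GMP array (0.0535). All 3 were also lost over all rows (0.0576, 0.093 and 0.0948). In GMP, Unc93b1 differed by -0.91 (SE 0.26), which limma's test did not call (adjusted p = 0.0806). It passed with array medians subtracted (-0.97, adjusted p = 0.0485) and with a trend in eBayes (0.0466). Leaving out either KO LSK array, outside this comparison, did not change the difference.

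**Figure D4:**
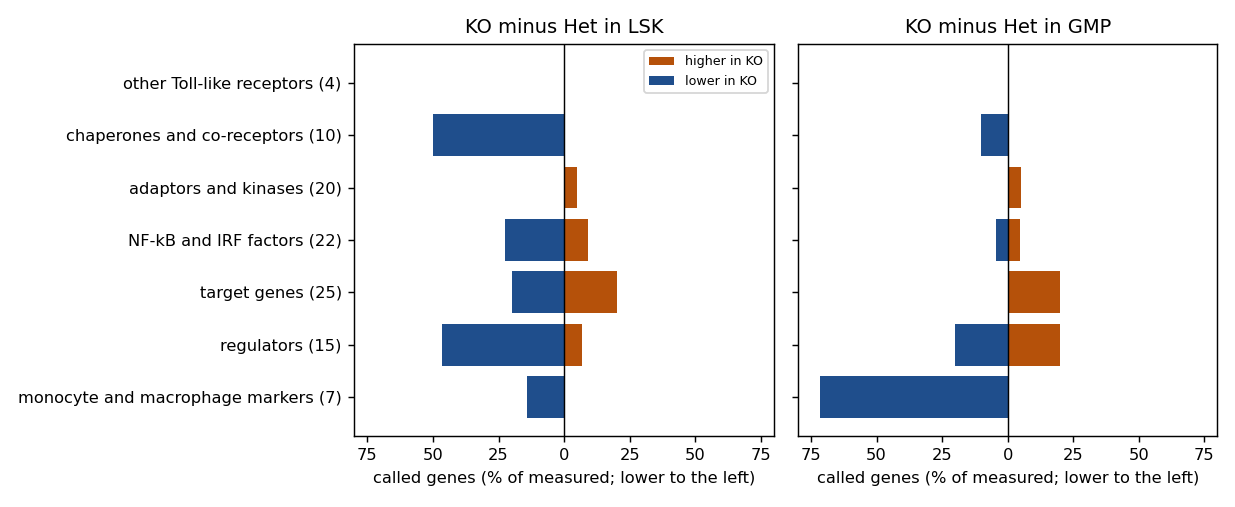
Share of the measured genes of each list (number in brackets) called higher (right) or lower (left) in KO than in Het, in LSK and in GMP, in percent. Chaperones, proteases and co-receptors and the regulators stand mostly to the left in LSK, monocyte and macrophage markers to the left in GMP, and target genes on both sides in LSK.

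Adaptors and kinases next to the receptors differed little. Of 20 measured, 1 rose and 0 fell in LSK and in GMP (at an unadjusted p under 0.05, 2 higher and 2 lower in LSK and 4 and 1 in GMP), with medians of -0.06 and -0.01. The gene that rose was Btk, a kinase of B cell and Toll-like receptor signalling, by 0.88 in LSK (SE 0.16, adjusted p = 0.00903) and 0.80 in GMP (adjusted p = 0.0178). Its LSK call was lost without Het LSK replicate 2 (0.0669), and its GMP call without any single GMP array (0.0797 to 0.144) and over all rows (0.0768). The adaptor Myd88 stood at 7.06 in Het LSK, 7.38 in KO LSK, 7.27 in Het GMP and 7.54 in KO GMP.

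Of 22 NF-kB and interferon regulatory factors and inhibitors, 5 fell and 2 rose in LSK (median -0.24), and 1 fell and 1 rose in GMP (median 0.11). Irf8 fell by 1.45 in LSK (SE 0.24, adjusted p = 0.007) and fell by 2.74 in GMP (adjusted p = 0.000258). In LSK, the inhibitor genes Tnip3 and Tnfaip3 went opposite ways: Tnip3 fell by 1.63 (SE 0.13, adjusted p = 0.000122) and Tnfaip3 rose by 1.15 (SE 0.21, adjusted p = 0.00966). Tnip3 had a mean of 4.41 in Het LSK and 2.79 in KO LSK, and was in the dim range in KO LSK and in both GMP groups. Irf4, in the dim range in all 4 groups, fell by 0.99 in LSK. Bcl3 rose by 0.90 in LSK (adjusted p = 0.0207) and by 0.84 in GMP. Its LSK call was lost over all rows (0.0785) and without either Het LSK array or KO LSK replicate 1. Calls in LSK were lost without Het LSK replicate 1 for Irf8 (0.0609), Tnfaip3 (0.0639) and Irf4 (0.0615), and for Irf4 without replicate 2 (0.089); that of Bcl3 in GMP was lost without any single array other than a KO LSK array or Het GMP replicate 1 (0.0528 to 0.21). Over all rows, the calls of Tnfaip3 (0.0522) and Irf4 (0.0597) in LSK and Bcl3 in GMP (0.128) were lost too.

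Target genes of Toll-like receptor signalling moved both ways in LSK. Of 25 measured, 5 rose and 5 fell there (median 0.05), and in GMP 5 rose and 0 fell (8 higher and 3 lower at an unadjusted p under 0.05; median 0.09). The chemokine genes Ccl3 and Ccl5 fell in LSK: Ccl3 fell by 5.32 (SE 0.36, adjusted p = 5.6e-05) and Ccl5 fell by 2.05 (SE 0.17, adjusted p = 0.000128), while Ccl2 rose by 2.97 (SE 0.23, adjusted p = 9.78e-05) and Cxcl2 by 1.87 (SE 0.38, adjusted p = 0.0173). In GMP, Acod1, which makes itaconate in activated macrophages, rose by 2.23 (SE 0.17, adjusted p = 0.000125). Tnfsf9 rose by 1.82 there, Ccl2 by 1.61, and Socs3 and Il12a by 0.96 each. Acod1 was called in LSK as well, where it rose by 1.37 (SE 0.17, adjusted p = 0.00141). Il1a, Il6, Il10, Il12b, Nos2 and Ifnb1 were in the dim range in all 4 groups, so 2 of the 5 rises in LSK lay within it: Il6 by 0.90 (adjusted p = 0.0498) and Ifnb1 by 0.67 (0.0369). Tnfsf9 was in the dim range in Het GMP. Leaving out the first Het LSK array (adjusted p = 0.118) or the second KO LSK array (0.0768) ended the LSK call of Cxcl2; lost as well was the GMP call of Il12a without Het GMP replicate 1 (0.148) or either KO GMP array (0.0953 and 0.145); both were lost over all rows (0.082 and 0.101).

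Among 15 measured regulators of myeloid and Toll-like receptor genes, 7 fell and 1 rose in LSK (median -0.60), and 3 fell and 3 rose in GMP (median -0.30). The list holds Cbfb, the deleted gene, and Irf8, counted above. Runx1, its DNA-binding partner, rose in both cell types, from 9.11 to 10.64 in LSK and from 8.72 to 10.19 in GMP. In LSK, Ebf1, Id2 and Pax5 fell by 3.42, fell by 2.16 and fell by 1.52. Ebf1 was in the dim range in all groups but Het LSK. In GMP, Cebpa, a factor of granulocyte and monocyte fate, fell by 1.67 (SE 0.17, adjusted p = 0.000487) and Egr1, an immediate early factor, rose by 3.24 (SE 0.24, adjusted p = 8.93e-05). Spi1, the gene for PU.1, was called in neither cell type and stood at 8.61 in Het LSK, 8.50 in KO LSK, 9.65 in Het GMP and 9.26 in KO GMP.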

How the data were processed

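RNA of sorted LSK and GMP cells was amplified, biotin-labelled and hybridised to 8 arrays. The authors deposited log2 values from RMA, per the submitters' processing notes, a method that corrects background, brings arrays to a common distribution and summarises probes per transcript cluster; its software and the genome build are not stated in the labels. A shift of all transcripts together is therefore not visible. Symbols came from the platform's annotation: 21789 of 35556 rows carried exactly 1, 1621 several and 12146 none, and only the first kind was tested. limma (version 3.58.1, R 4.3.3) fitted a mean per group (4 groups, 8 arrays; 4 residual and 4.83 prior degrees of freedom), with 5 two-sided contrasts and Benjamini-Hochberg adjustment over the 21789 rows; the script was tested on simulated data. SE is limma's. Among calls, 39.0% lay higher in KO LSK (52.4% after array medians were subtracted), 57.3% in KO GMP (50.0%), 73.7% above 0 for the interaction (58.4%), and 45.1% (67.1%) and 60.5% (61.9%) higher in GMP in Het and in KO. That subtraction moved the median of all rows by 0.155 for GMP against LSK in Het and -0.138 for the interaction.

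Named were the 10 genes, Cbfb, up to 4 called genes with the largest differences per list for KO against Het, and the 5 genes of most similar pattern for the 3 widest-ranging members. For target genes in GMP all 5 called genes are named, as Socs3 and Il12a both rose by 0.96. Not all genes chosen by these rules are printed. Myd88, Spi1, Adgre1, Fcgr1, the folding chaperones, the megakaryocyte and erythroid markers and the dim target genes were named after their values were seen. So were the dendritic cell markers that were not called. The members and all lists were chosen with earlier results of these data known. Alternatives were all rows of the table, array medians subtracted, only rows above the median on 2 arrays, eBayes with a trend, the replicate number as a block, and each array left out; where that leaves 1 array in a group, it is assumed to vary like the others. Blocking within each genotype was added after the data were seen. The number of arrays limits the precision.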

Additional observations from a re-analysis of the deposited data

Results flagged for a closer look

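For Tlr4, the measured differences between genotypes had opposite signs in the cell types, and neither was called (LSK -0.43, limma adjusted p = 0.0847; GMP 0.27, adjusted p = 0.32). The KO arrays were the lower pair in LSK (5.79 and 5.54 against 6.07 and 6.11) and the higher pair in GMP (7.07 and 7.17 against 6.87 and 6.83). The interaction was 0.70 (SE 0.18), and limma's test of it gave adjusted p = 0.0958, which misses the threshold; over the alternatives the adjusted p ran from 0.0462 to 0.29. The cause was not tested.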

How the results depend on the processing

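None of the 50 differences of the 10 genes reversed with a call under the alternatives run. Of the 20 called, 10 were kept under every one of them: Ly86 and Cd180 in GMP for KO against Het, and Cd14, Tlr1, Tlr4 and Tlr7 for GMP against LSK in both genotypes; the other 10 were lost under 1 or more, as given beside each, and 8 of the 30 not called passed under 1 or more. Besides the values given there, Tlr2 between Het GMP and Het LSK passed with each array's median subtracted (adjusted p = 0.0174) and with only rows above the median on 2 arrays (0.0351); Ly86, Tlr6 and Ly96 in Het and Ly96 in KO lost the call between cell types when all rows were tested (0.136, 0.0926, 0.0699 and 0.143). With more rows tested, 784 were called for KO against Het in GMP (1312 as reported), 182 for the interaction (499) and 756 for GMP against LSK in KO (1318). Leaving out 1 array gave 994 to 1614 calls in LSK (1684 as reported), 634 to 1586 in GMP, 223 to 705 for the interaction, 2078 to 4486 for GMP against LSK in Het (3813) and 579 to 1539 in KO. The labels give replicate numbers but no shared mouse: deviations of same-numbered arrays correlated at 0.133 between LSK and GMP in Het, 0.179 in KO and -0.143 to -0.0255 across the other pairs. With the replicate block, 1570 rows were called in LSK, 1224 in GMP, 480 for the interaction, and 3602 and 1216 between cell types; Tlr6 in LSK missed the threshold (adjusted p = 0.0501) and Cd180 between cell types in Het passed (0.0278; 0.0304 with a replicate block within genotype). No member had a further row to try. Ly96 and Tlr9 were not tested with only rows above the median on 2 arrays, as both were removed. Near the dim range of the scale the size of a fall, as that of Ly86, is limited by background.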
